A study of Mus musculus with 4 samples.

Results

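Eomes-only and T-only cells were the cells of 2 mouse gastrulation libraries that held mRNA of only 1 of the T-box genes Eomes and T. The cells were chosen by measured values. A cell entered the pool with at least 1 UMI (unique molecular identifier, 1 counted mRNA molecule) of Pou5f1 and no UMI of Elf5, Ascl2 or Apob. Pou5f1 marks the epiblast and cells that have recently left it, Elf5 and Ascl2 mark extra-embryonic ectoderm and trophoblast, and Apob marks visceral endoderm. Pool cells with at least 1 Eomes UMI and no T UMI formed the Eomes-only side, and pool cells with at least 1 T UMI and no Eomes UMI formed the T-only side. The sides held 1124 cells together, of 7629 cells in the 2 libraries and 11123 cells in the 3 libraries of the series. In the MS-LS library, 533 cells were Eomes-only and 126 were T-only, and the same pool of 1926 cells held 200 cells with both mRNAs and 1067 with neither. In the OB-EB library, 188 cells were Eomes-only and 277 were T-only, beside 129 with both and 1377 with neither in a pool of 1971 cells.

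Both libraries were whole embryos of genotype TnEGP-CreERT2/+; R26Rtdtomato/R26Rtdtomato, in which tamoxifen-activated Cre, made together with a nuclear GFP under the endogenous T gene, switches on the tdTomato reporter in T-expressing cells and their descendants. MS-LS embryos (mid to late streak stage) were taken at E6+21h after tamoxifen by gavage at E6+5h, and OB-EB embryos (up to the early bud stage) at E7+3h after tamoxifen at E6+21h, each at 0.08 mg per body weight. The embryos of a stage were pooled in 1 library, so each side is a set of cells of 1 library and no p-value is given. The 2 sides were compared only inside a library, and every interval is a 95% interval that covers counting error only.

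Eomes and T are related transcription factors that bind the same DNA element. Eomes acts first, in the posterior epiblast and the streak, and is known for its part in making the cardiac mesoderm and the definitive endoderm. T is switched on in the streak, stays on in the later, caudal streak and the node, and is known for its part in making the trunk and tail mesoderm.

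Many members rested on a single molecule of the gene that chose them. In MS-LS, 313 of the 533 Eomes-only cells had exactly 1 Eomes UMI, 131 had 2 and 89 had 3 or more, with 11 as the highest. On the T-only side, 92 of 126 cells had exactly 1 T UMI and 34 had 2 or more. In OB-EB, 158 of 188 Eomes-only cells and 169 of 277 T-only cells had exactly 1. Just outside the rule lay 162 cells of MS-LS and 131 of OB-EB that would have been Eomes-only but had 0 Pou5f1 UMIs, and 40 and 164 that would have been T-only. The levels of the 2 genes that chose the sides were 317 CPM (UMIs per 1000000 UMIs of a side) of Eomes and 304 CPM of T in MS-LS, and 321 and 511 CPM in OB-EB.

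Eomes and T UMIs were also counted in cells selected for other lineages. In MS-LS, 2.57% of 428 cells with 3 or more Apob UMIs held a T UMI (interval 1.29 to 4.55%), against 16.9% of the pool (15.3 to 18.7%), at a median of 5106 and 4212 UMIs per cell. In OB-EB the shares were 3.14% of 191 such cells and 20.6% of the pool, at medians of 3791 and 2709 UMIs. For Eomes, which visceral endoderm is known to express early on, the Apob cells gave 16.8% against 38.1% of the pool in MS-LS and 5.24% against 16.1% in OB-EB. All 4 pool shares lay above the Apob cells. Cells with an Elf5 UMI, a lineage that expresses Eomes, held an Eomes UMI in 56.4% of 383 cells in MS-LS and 27.9% of 104 in OB-EB. The T share in these Elf5 cells was 11.5% in MS-LS and 14.4% in OB-EB. With every cell thinned to 2000 UMIs it was 2.93% and 3.09%, against 9.11% and 16.4% of the pool. The small group with 3 or more blood and endothelial UMIs held T in 17 of 34 cells in MS-LS and 6 of 24 in OB-EB. It held Eomes in 12 of 34 and 2 of 24 cells. In MS-LS that was 35.3% (19.75 to 53.5%), against 38.1% of the pool, at medians of 6032 and 4212 UMIs. Thinned to 2000 UMIs, these MS-LS shares were 12.5% (3.51 to 29.0%) and 22.3%.

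Depth differed between the groups. The median cell had 4833 UMIs on the Eomes-only side of MS-LS and 3902 on its T-only side, and 3279 and 3133 in OB-EB. Cells with both mRNAs were the deepest group in each library, at medians of 6399 and 3931 UMIs, and cells with neither the shallowest, at 3825 and 2505. The median mitochondrial share was 1.56% and 1.63% on the MS-LS sides and 1.91% and 1.86% on the OB-EB sides. Cells were called female from Xist without Y-linked mRNA and male from Y-linked mRNA without Xist. Among called cells, 53.3% of 270 were female on the Eomes-only side of MS-LS and 38.6% of 57 on the T-only side. In OB-EB 62.9% of 97 and 69.0% of 126 were female. The intervals of the 2 sides overlapped in both libraries.

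Marker levels were compared inside and outside the pool. Pou5f1, which the rule itself requires, was at 803 CPM in the pool and 97.5 CPM outside it in MS-LS. In OB-EB it was at 701 and 45.1 CPM. Among epiblast markers outside the rule, Sox2 was at 48.6 and 48.2 CPM in MS-LS and Pou3f1 at 64 and 67.9 CPM. Utf1 was at 201 and 137 CPM there, and Dnmt3b at 865.9 and 430.5 CPM. In OB-EB these 4 markers were higher in the pool, with Sox2 at 90.45 and 46.75 CPM and Pou3f1 at 181 and 107 CPM. The streak marker Mixl1 was at 20.1 CPM in the MS-LS cells with neither mRNA, 64.5 CPM in Eomes-only cells, 63.3 CPM in T-only cells and 146 CPM in cells with both. In OB-EB it was at 21.1, 42.8, 109 and 183 CPM in the same order. In both libraries, each side carried more Mixl1 than cells with neither and less than cells with both.

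Few genes differed by 2-fold. Of 5318 genes with at least 50 UMIs over both sides in MS-LS, 113 (2.12%) were at least 2-fold higher in Eomes-only cells and 30 (0.564%) at least 2-fold higher in T-only cells. Of 3583 genes in OB-EB, 19 (0.53%) and 22 (0.614%) were. The Eomes-only and T-only sides held 2928726 and 569037 UMIs in MS-LS, and 701591 and 1002729 in OB-EB. With totals as unequal as in MS-LS, counting error need not pass 2-fold equally often in both directions. Its part in the 113 and 30 genes was not tested. The median log2 ratio, Eomes-only over T-only, was 0.03 and 0.01. Most genes past 2-fold were sparsely counted, with fewer than 100 UMIs in 121 of 143 cases in MS-LS and 33 of 41 in OB-EB. Between the libraries, 1854 of the 3539 genes measured in both had ratios of the same sign (52.4%). Genes are therefore named below by the bound of their interval nearest to 0, with at least 50 UMIs required, and not by the size of the ratio.

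**Figure D1:**
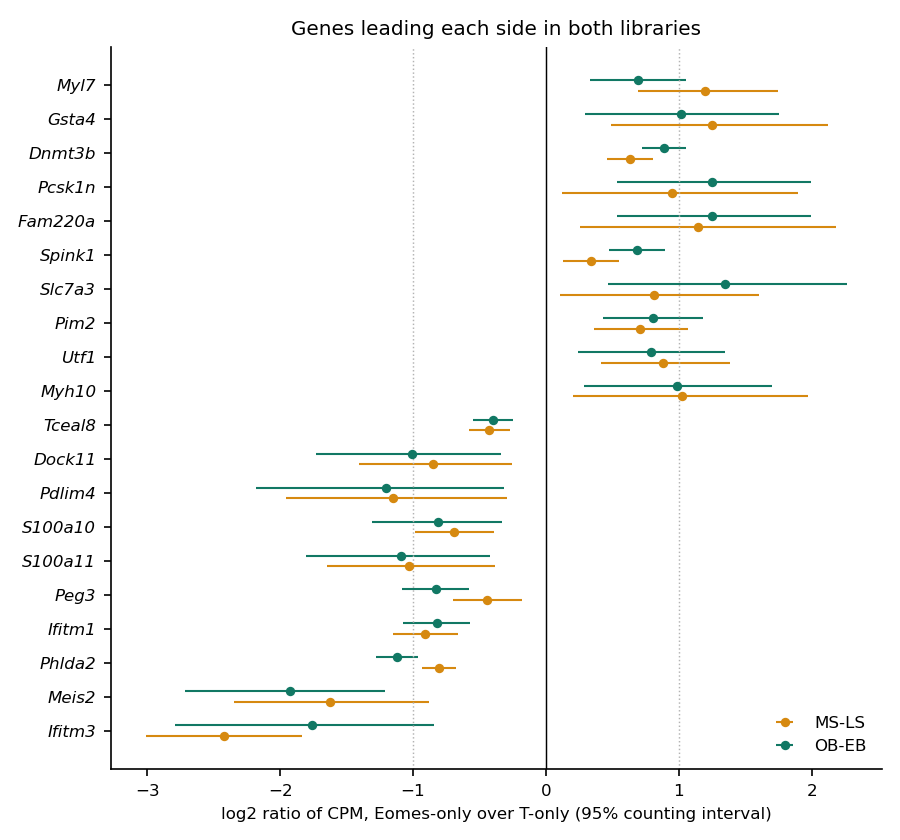
Log2 ratio of CPM, Eomes-only over T-only, of the 10 genes per direction whose interval stood farthest from 0 in both libraries (points, MS-LS in orange and OB-EB in green; bars, 95% counting intervals; dotted lines, 2-fold). Ifitm3 and Meis2 stand farthest on the T-only side in both libraries, and all 20 genes were picked for having the same sign in both.

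T-only cells carried more mRNA of a small set of genes in both libraries, led by Ifitm3, Meis2, Phlda2 and Ifitm1. Ifitm3 and Ifitm1 encode interferon-inducible membrane proteins known to mark early germ cells and the posterior embryo, Meis2 is a homeobox gene of later mesoderm, and Phlda2 is an imprinted growth regulator best known from extra-embryonic tissue. Ifitm3 was at 17.1 CPM in Eomes-only cells and 91.4 CPM in T-only cells of MS-LS, a log2 ratio of -2.42 (-3.01 to -1.83). In OB-EB it was at 17.1 and 57.8 CPM, a ratio of -1.76 (-2.79 to -0.85). Among the OB-EB cells called male, 36 and 39, its ratio was 0.36. The share of cells with an Ifitm3 UMI was 7.9% against 20.6% in MS-LS and 5.3% against 13.4% in OB-EB. Meis2 was at 15.4 and 47.5 CPM in MS-LS (ratio -1.63, -2.35 to -0.88) and at 27.1 and 103 CPM in OB-EB (ratio -1.92, -2.71 to -1.21). Its UMIs were spread over 26 of the 126 T-only cells of MS-LS and 78 of the 277 of OB-EB. The Meis2 ratio kept its sign in all 19 and all 17 alternative analyses, some of which cannot change a gene's ratio.

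Phlda2 was the most abundant of the set. It was at 684 CPM in Eomes-only and 1193 CPM in T-only cells of MS-LS (ratio -0.80, -0.93 to -0.68), and at 617 and 1341 CPM in OB-EB (ratio -1.12, -1.28 to -0.96). Ifitm1 was at 177 and 332 CPM in MS-LS and at 265 and 469 CPM in OB-EB, ratios of -0.91 and -0.82. Within MS-LS cells named nascent mesoderm, 105 and 26, neither difference was seen, with Phlda2 at 1354 and 1391 CPM (-0.04, -0.29 to 0.22) and Ifitm1 at 486 and 414 CPM (0.23, -0.22 to 0.71). Within those named primitive streak the ratios were -1.61 (-1.95 to -1.26) and -0.97 (-1.67 to -0.23). The other genes of the set were the imprinted gene Peg3, the calcium-binding S100a10 and S100a11, the actin-associated Pdlim4, and the X-linked Tceal8 and Dock11, a guanine nucleotide exchange factor. Their ratios lay between -1.15 and -0.43 in MS-LS and between -1.20 and -0.40 in OB-EB. Tceal8 showed the smallest difference on the highest counts, 1648 and 430 UMIs in MS-LS at a ratio of -0.43, and in MS-LS cells called female its ratio was 0.15 (-0.30 to 0.64).

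Ifitm1 and Ifitm3 are separated by 39760 bases of chromosome 7 (GRCm38, GENCODE M21), Ifitm1 at chr7:140967221-140969825 on the plus strand and Ifitm3 at chr7:141009586-141010770 on the minus strand. Promoters were searched for the T-box element TCACACCT on either strand, in windows from 250 bases before to 50 after a start (RefSeq, GRCm38.p6). Of 32851 windows, 1.27% held it, and of the windows found for the leading genes, 0 of 19 on the T-only side (15 of 21 genes matched) and 0 of 16 on the Eomes-only side (16 of 22 matched). The shorter core TCACACC, contained in the longer one, stood in 3.98% of all windows, in 1 of the 19, that of Peg3, and in 0 of the 16. The 250 bases before the start are shown for Ifitm3 and Ifitm1, the neighbouring pair at the head of the T-only side, for Peg3 with the core in capitals, 241 bases before the start, and for Dnmt3b from the Eomes-only side. The stretch shown lies at chr7:141010745-141010994 on the minus strand for Ifitm3, at chr7:140967826-140968075 on the plus strand for Ifitm1, at chr7:6730420-6730669 on the minus strand for Peg3 and at chr2:153649199-153649448 on the plus strand for Dnmt3b. The starts are those of RefSeq and differ from the ends of the GENCODE spans above. By those spans, the Ifitm1 stretch lies inside the gene and the Ifitm3 stretch overlaps the gene.
Ifitm3: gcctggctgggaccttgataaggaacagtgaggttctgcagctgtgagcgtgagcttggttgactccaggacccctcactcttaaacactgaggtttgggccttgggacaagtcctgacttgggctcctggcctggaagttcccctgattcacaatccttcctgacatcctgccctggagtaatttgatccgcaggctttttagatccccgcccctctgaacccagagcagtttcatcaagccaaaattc
Ifitm1: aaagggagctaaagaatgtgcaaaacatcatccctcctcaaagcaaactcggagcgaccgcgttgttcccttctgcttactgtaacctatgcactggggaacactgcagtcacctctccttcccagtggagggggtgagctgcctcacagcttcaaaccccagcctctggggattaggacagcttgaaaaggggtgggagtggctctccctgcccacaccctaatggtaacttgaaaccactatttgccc
Peg3: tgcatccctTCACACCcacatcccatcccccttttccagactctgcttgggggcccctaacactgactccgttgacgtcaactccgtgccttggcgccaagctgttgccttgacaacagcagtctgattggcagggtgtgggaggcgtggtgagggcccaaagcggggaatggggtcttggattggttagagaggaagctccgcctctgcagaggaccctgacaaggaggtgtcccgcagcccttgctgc
Dnmt3b: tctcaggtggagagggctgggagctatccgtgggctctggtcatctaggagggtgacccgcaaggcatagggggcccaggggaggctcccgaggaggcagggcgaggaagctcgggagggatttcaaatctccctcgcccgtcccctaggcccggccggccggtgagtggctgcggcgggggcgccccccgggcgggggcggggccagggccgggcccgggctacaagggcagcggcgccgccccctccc

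Markers of germ cells and of blood and endothelium, and in MS-LS of ciliated node cells, were higher on the T-only side. The 7 germ cell markers (Dppa3, Prdm1, Dnd1, Ifitm3, Nanos3, Prdm14 and Sprr2a3) summed to 25.3 CPM in Eomes-only and 123 CPM in T-only cells of MS-LS, and to 22.8 and 86.8 CPM in OB-EB. Without Ifitm3 the sums were 24 and 18 UMIs in MS-LS and 4 and 29 UMIs in OB-EB, ratios of -1.95 (-2.89 to -0.98) and -2.34 (-4.31 to -0.83). Dppa3 was near 0, at 4 and 2 UMIs in MS-LS and 0 and 1 in OB-EB. So were Prdm14, at 0 and 1 and at 0 and 2, and Nanos3, at 1 and 4 and at 0 and 1. Dnd1 had 11 and 2 UMIs in MS-LS, a ratio of 0.10 (-2.10 to 3.31), and 2 and 4 in OB-EB. The rest of the sums without Ifitm3 came from Prdm1 and Sprr2a3. With Ifitm3 included, the UMIs were concentrated, since 5 cells held 38 of the 70 germ cell UMIs on the T-only side of MS-LS. Cells with 3 or more such UMIs made up 3.97% of T-only cells (1.30 to 9.02%) and 0.563% of Eomes-only cells (0.116 to 1.64%) there. Among cells with no UMI of the 6 other markers, Ifitm3 stood at 16.7 and 45.0 CPM in MS-LS and at 17.5 and 40.1 CPM in OB-EB, ratios of -1.43 (-2.18 to -0.64) and -1.19 (-2.27 to -0.22).

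The 8 node cilia genes summed to 62 UMIs on each side of MS-LS, 21.2 CPM in Eomes-only and 109 CPM in T-only cells, and 41 of the 62 T-only UMIs came from 5 cells. Foxj1, the master regulator of motile cilia, had 16 and 15 UMIs. In OB-EB the sums were 44.2 and 41.9 CPM. The 12 blood and endothelial markers summed to 67.9 and 109 CPM in MS-LS, a ratio of -0.68 (-1.10 to -0.25). In OB-EB they summed to 34.2 and 57.8 CPM, a ratio of -0.76 (-1.51 to -0.05). In T-only cells of MS-LS, Etv2 gave 36 of the 62 UMIs and 5 cells held 38 of them. All 3 globin genes were at 0 UMIs there, while Fli1 had 1 UMI in Eomes-only and 5 in T-only cells. Visceral endoderm markers without Spink1 gave ratios of -0.16 (-0.37 to 0.06) and 0.16 (-0.11 to 0.43). Extra-embryonic ectoderm and trophoblast markers summed to 70.3 and 49.2 CPM in MS-LS and 64.1 and 55.9 CPM in OB-EB. Apart from the values given here without such cells, their part in the ratios was not tested.

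Eomes-only cells carried more mRNA of epiblast genes. All 12 measured members of the epiblast and pluripotency list in OB-EB, and 12 of 13 in MS-LS, were higher on the Eomes-only side, where 52.1% and 54.7% of all genes were. The list's median log2 ratio was 0.77 in OB-EB and 0.61 in MS-LS, and 3 of the 12 and 0 of the 13 were past 2-fold. Dnmt3b, the de novo DNA methyltransferase of the epiblast, was at 827 and 534 CPM in MS-LS (ratio 0.63, 0.46 to 0.81) and at 999 and 541 CPM in OB-EB (ratio 0.89, 0.72 to 1.05). Utf1, an epiblast chromatin factor, was at 133 and 72.1 CPM in MS-LS and at 89.8 and 51.9 CPM in OB-EB. The kinase gene Pim2 was at 218 and 134 CPM in MS-LS and at 190 and 109 CPM in OB-EB.

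Sox2 and Pou3f1, which mark the anterior epiblast and the coming neural plate, were among the leaders in OB-EB. Sox2 was at 101 CPM in Eomes-only and 42.9 CPM in T-only cells (ratio 1.24, 0.67 to 1.82), and Pou3f1 at 170 and 68.8 CPM (ratio 1.30, 0.86 to 1.75). In MS-LS their ratios were 0.67 (-0.11 to 1.55) and 0.63 (-0.09 to 1.42). The amino acid transporter gene Slc7a3 had ratios of 0.82 and 1.34.

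The epiblast difference in MS-LS was not of 1 size throughout. With each cell thinned to 2000 UMIs and the rule applied again, the list's median was 0.03 over 302 and 95 cells, while in OB-EB it lay between 0.30 and 1.02 in the 16 alternatives that gave one. Cells were next divided by published cluster names, matched by barcode. Of these names, epiblast was carried by 37.0% of the Eomes-only cells (32.8 to 41.2%) and 19.0% of the T-only cells (12.6 to 27%) of MS-LS. Shares named primitive streak were 22.5% and 22.2%, and shares named nascent mesoderm 19.7% and 20.6%. Endothelial and blood cells made up 0.75% and 6.35%, and no name was at hand for 4.13% and 13.5%. Within the cells named nascent mesoderm, 105 and 26, the list's median was -0.17, over fewer measured genes. Within named streak cells, 120 and 28, Dnmt3b kept a ratio of 0.54 (0.23 to 0.86) and Utf1 had 0.13 (-0.81 to 1.20). In OB-EB no name was at hand for 79.8% of Eomes-only and 69.3% of T-only cells. Primitive streak was carried by 14.4% and 24.9%, and names of epiblast and nascent mesoderm were not at hand. The make-up of the OB-EB sides by these names is therefore mostly unknown. In the OB-EB cells named primitive streak, 27 and 69, Dnmt3b was at 443 and 435 CPM, a ratio of 0.025 (-0.59 to 0.61). Too few list members could be measured there for a median.

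**Figure D2:**
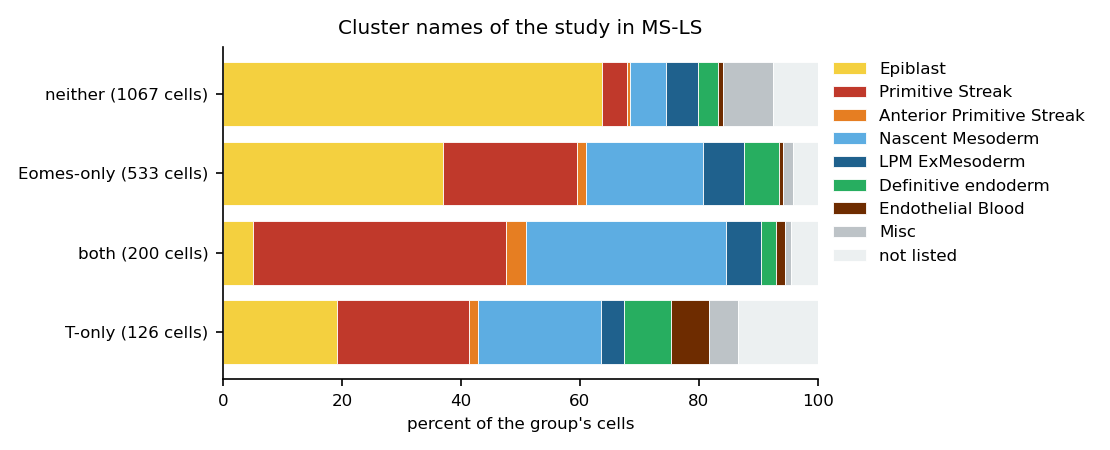
Share of cells with each published cluster name, in percent of the cells of each of the 4 groups of the MS-LS pool (x axis, percent; colours, names; "not listed", cells without a name in the table used). Epiblast makes up 63.6% of cells with neither mRNA, 37.0% of Eomes-only, 19.0% of T-only and 5.00% of cells with both.

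Cells with neither mRNA carried the most Utf1, at 311 CPM in MS-LS and 194 CPM in OB-EB, and cells with both carried the least, at 45.3 and 26.7 CPM. Eomes-only cells stood between them, as did T-only cells. The epiblast list summed to 2790, 2164, 1916 and 1596 CPM in the neither, Eomes-only, both and T-only cells of MS-LS. In OB-EB the sums were 2709, 2767, 1934 and 1710 CPM, so there the Eomes-only cells stood level with cells that had neither mRNA. Sox2 showed the same in OB-EB, at 108 CPM in cells with neither and 101 CPM in Eomes-only cells, with intervals that overlapped.

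**Figure D3:**
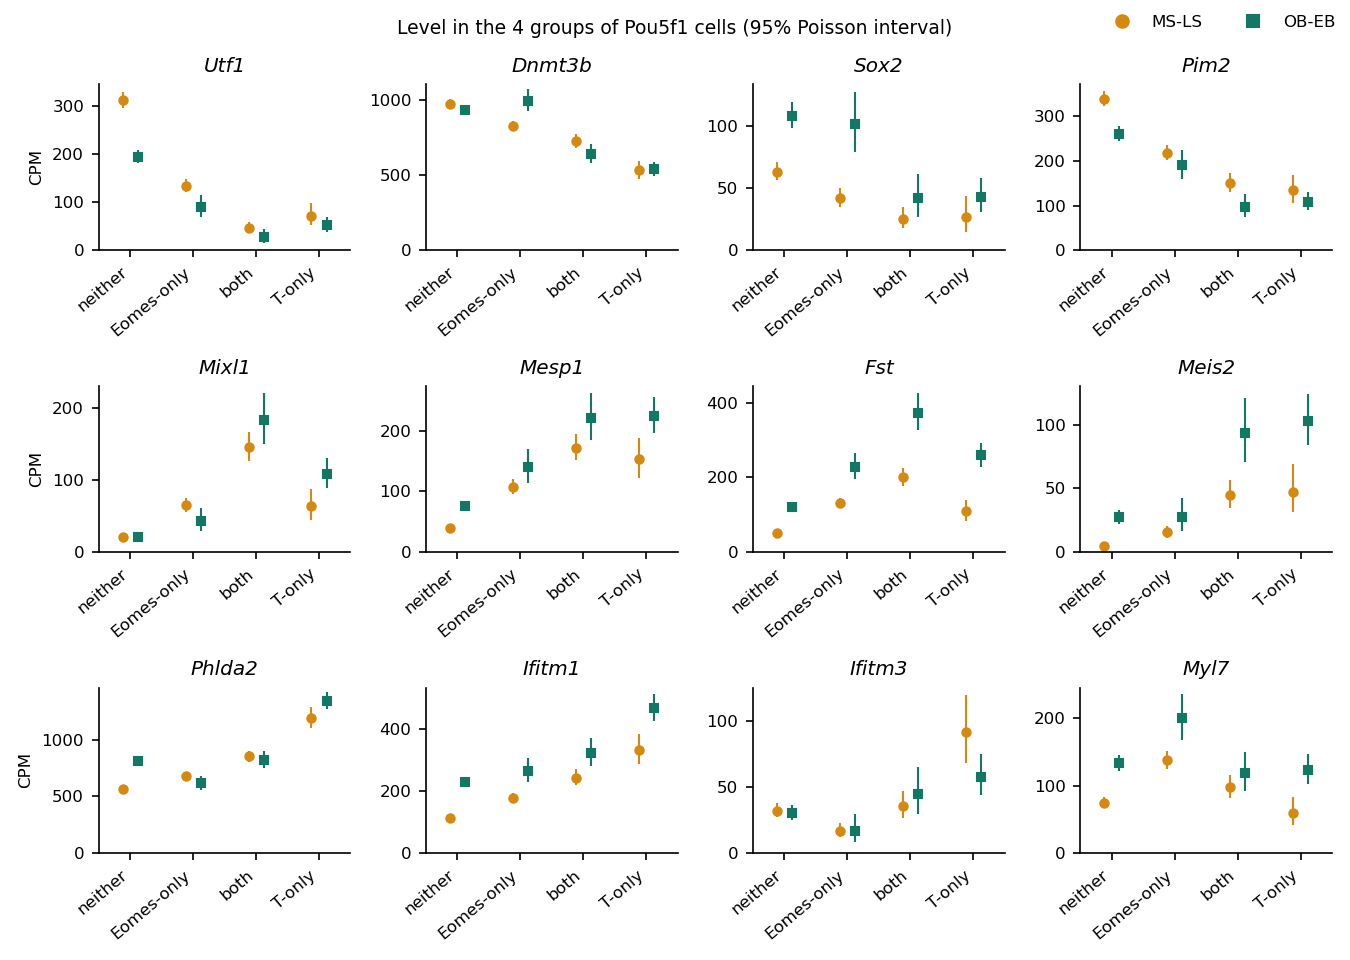
CPM of 12 genes in the 4 groups of Pou5f1 cells (x axis, groups; orange circles, MS-LS; green squares, OB-EB; bars, 95% Poisson intervals; linear y axes from 0). Utf1 and Pim2 are highest in cells with neither mRNA, Mixl1 and Fst in cells with both, and Phlda2 and Ifitm1 in T-only cells.

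The anterior streak and organizer genes gave no common direction. Of the 14 measured in MS-LS, 6 were higher in Eomes-only and 8 in T-only cells, where 45.3% of all genes were, and the median was -0.07. Of 8 in OB-EB, 4 were higher on each side, where 47.9% of all genes were higher in T-only cells, and the median was -0.09. Foxa2, a pioneer factor of endoderm and node, was at 121 and 29 UMIs in MS-LS, a ratio of -0.30 (-0.90 to 0.34). Gsc, an organizer homeobox gene, was at 0.20 (-0.46 to 0.92). Lhx1, needed for anterior mesendoderm, was at 113 and 84.4 CPM in MS-LS (0.42, -0.02 to 0.89) and at 0.22 (-0.12 to 0.56) in OB-EB. Fst, the activin antagonist of the anterior streak, was at 0.27 (-0.12 to 0.68) and -0.19 (-0.48 to 0.10).

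Lhx1 was also compared among cells of the same cluster name. In MS-LS cells named primitive streak, Lhx1 was at 100 CPM in 120 Eomes-only cells and 27.6 CPM in 28 T-only cells (ratio 1.86, 0.45 to 3.78). The T-only value there rests on 4 UMIs. In OB-EB cells named primitive streak, 27 and 69, it was at 260 and 82.2 CPM (1.66, 0.66 to 2.69). In MS-LS cells named nascent mesoderm, 161 and 24 UMIs gave a ratio of 0.38 (-0.25 to 1.06). Among those named epiblast, 10 and 1 UMIs gave -0.02 (-2.83 to 5.42). Over all cells named streak, the anterior primitive streak cluster included, the anterior list's median in MS-LS was 0.53 over the 7 genes that could be measured. With at least 2 Eomes or T UMIs required, over 220 and 34 cells, it was 0.49. Other anterior list genes in the OB-EB cells named primitive streak did not share the Lhx1 difference. Fst, with 33 and 83 UMIs, was at 0.10 (-0.53 to 0.70). Otx2 had 5 and 6 UMIs (1.17), Lefty2 1 and 8 (-1.57) and Apela 2 and 19 (-1.82), each with an interval that held 0.

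Cer1, a secreted Nodal antagonist, was the anterior gene that led the T-only side of MS-LS, at 58.7 and 130 CPM (ratio -1.15, -1.55 to -0.73). It was carried by few cells, since 5 T-only cells held 57 of its 74 UMIs. Without the cells named definitive endoderm, 31 and 10 cells, its ratio was 0.28, and in OB-EB it was 0.00 (-0.60 to 0.59). Upp1 (-0.72, -1.23 to -0.19) and Bmp2 (-0.90, -1.58 to -0.18) also stood on the T-only side of MS-LS. For Bmp2, 5 T-only cells held 14 of 25 UMIs. Its ratio was -2.94 (-4.13 to -1.71) in cells called female and 0.36 (-0.94 to 1.92) in cells called male. In MS-LS cells named primitive streak, Upp1 was at -0.20 (-1.80 to 1.83) and Bmp2 had 8 and 1 UMIs. Of the definitive endoderm genes, 6 of 12 in MS-LS and 4 of 6 in OB-EB were higher in Eomes-only cells, near the 54.7% and 52.1% of all genes, with medians of 0.00 and 0.09. Emb, a cell adhesion gene and the most abundant of them, had ratios of -0.14 and -0.13, and the neuropeptide gene Trh was at 0.14 in MS-LS and 1.06 (0.45 to 1.69) in OB-EB.

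Caudal and late streak genes were higher in T-only cells of OB-EB. All 10 that were measured were, where 47.9% of all genes were, with a median of -0.46 against 0.01 over all genes. Of the 10, 2 were past 2-fold, where 0.614% of all genes were. Rspo3, a Wnt-enhancing ligand, was at 22.8 and 63.8 CPM (ratio -1.49, -2.38 to -0.68). Dll1, a Notch ligand of the paraxial mesoderm, was at 19.9 and 54.9 CPM (-1.46, -2.42 to -0.59). The cyclin gene Ccnd2 was at -0.66 (-0.97 to -0.35), Sp8 at -0.43 and Fgf8 at -0.47. The caudal homeobox gene Cdx2 had 3 and 27 UMIs and the paraxial mesoderm gene Tbx6 had 2 and 17, both under the 50 UMIs required. With at least 2 Eomes or T UMIs required, over 30 and 108 cells, the list's median was 0.28, on 6 measured genes. In MS-LS the list split into 5 genes higher on each side, near the share of all genes, with a median of 0.02.

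Of the genes of the whole streak, 5 of 8 in MS-LS and 4 of 6 in OB-EB were higher in T-only cells, about 1 gene more than the 45.3% and 47.9% of all genes give. Mixl1, at 0.03 (-0.49 to 0.59) in MS-LS, was at 42.8 and 109 CPM in OB-EB (ratio -1.35, -1.98 to -0.75). The Wnt antagonist gene Frzb was at -0.59 (-1.07 to -0.09) and -0.70 (-1.11 to -0.31), and Gas1 at -0.50 and -0.81. The list's medians were -0.31 over 8 genes in MS-LS and -0.55 over 6 in OB-EB. Lefty2, the Nodal antagonist of the streak and early mesoderm, was at 0.10 in MS-LS and -0.94 (-1.54 to -0.38) in OB-EB.

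**Figure D4:**
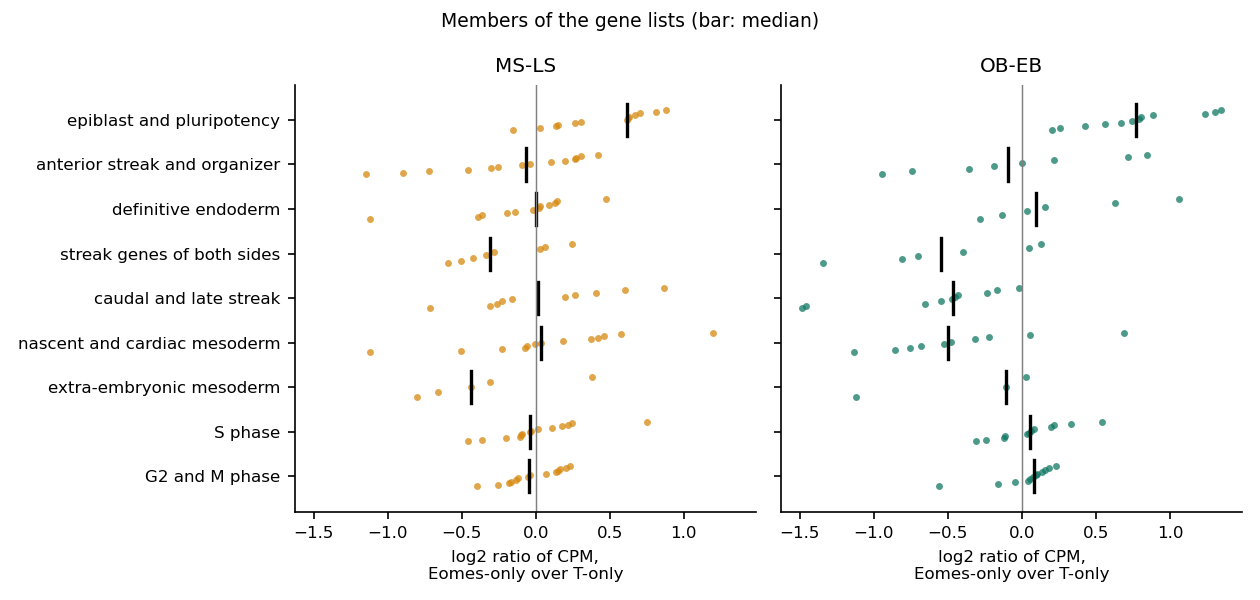
Log2 ratio of CPM, Eomes-only over T-only, of each measured member of 9 gene lists (points; black bars, list medians; left, MS-LS; right, OB-EB). The epiblast list lies right of 0 in both libraries, the caudal list left of 0 in OB-EB alone, and both cell cycle lists around 0.

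Of the nascent and cardiac mesoderm genes, 8 of 10 were higher in T-only cells of OB-EB, where 47.9% of all genes were, with a median of -0.50. In MS-LS 6 of 13 were, beside 45.3% of all genes, with a median of 0.03. Mesp1, the first marker of cardiac mesoderm, was higher in T-only cells of both libraries. It was at 108 and 153 CPM in MS-LS (ratio -0.50, -0.85 to -0.14) and at 140 and 224 CPM in OB-EB (-0.68, -1.04 to -0.34). Within MS-LS cells named primitive streak its ratio was -1.06 (-1.72 to -0.38), and within those named nascent mesoderm -0.12 (-0.62 to 0.41). It was on the other side in OB-EB cells named primitive streak, at 0.29 (-0.45 to 0.999), and in MS-LS cells called female, at 0.51 (-0.67 to 2.0). The fibronectin gene Fn1 was at -0.07 in MS-LS and -0.86 (-1.23 to -0.50) in OB-EB. Aplnr, the apelin receptor of migrating mesoderm, was at -0.23 and -1.13, and Lef1 at 0.18 and -0.48.

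Myl7 was higher in Eomes-only cells of both libraries and led that side of MS-LS. It encodes the atrial myosin light chain and is an early marker of cardiac progenitors. It was at 137 and 59.8 CPM in MS-LS (ratio 1.20, 0.69 to 1.75) and at 200 and 124 CPM in OB-EB (0.69, 0.33 to 1.05). In MS-LS, 274 of its 402 Eomes-only UMIs came from the 105 cells named nascent mesoderm, where its ratio was 1.73 (1.0 to 2.56). Among cells named epiblast, 33 and 7 UMIs gave -1.10 (-2.30 to 0.32). In OB-EB its ratio was -0.35 (-1.13 to 0.41) in cells called female and 0.11 (-2.02 to 1.90) in cells named primitive streak. T-only cells of MS-LS with 2 or more T UMIs held Myl7 at 12.5 CPM, against 78.3 CPM in those with exactly 1.

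**Figure D5:**
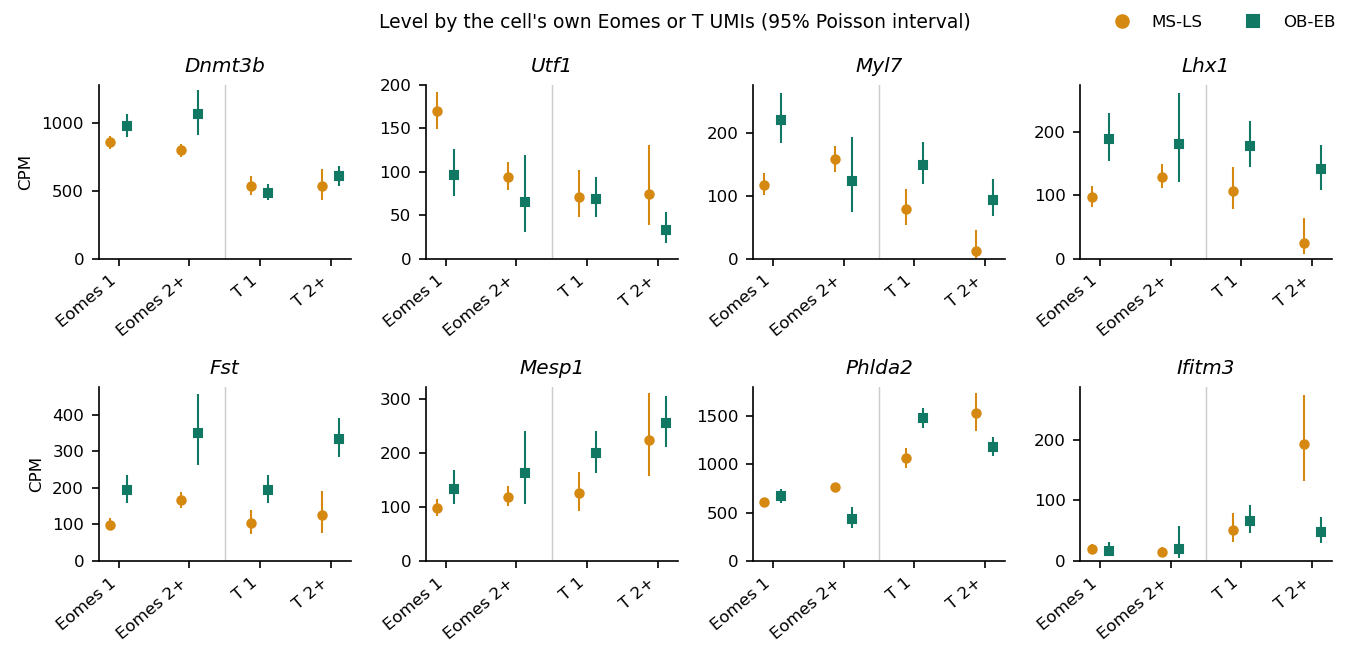
CPM of 8 genes in Eomes-only cells with exactly 1 or with 2 or more Eomes UMIs, and in T-only cells with exactly 1 or with 2 or more T UMIs (orange circles, MS-LS; green squares, OB-EB; bars, 95% Poisson intervals; linear y axes from 0). Dnmt3b is higher in both Eomes-only subsets than in both T-only subsets, and Ifitm3 of MS-LS is highest in T-only cells with 2 or more T UMIs.

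Cells at and above the threshold could differ in level. In MS-LS, Utf1 was at 170 CPM in the 313 Eomes-only cells with exactly 1 Eomes UMI and at 94.3 CPM in the 220 with more, with intervals apart. Fst ran the other way, at 98.8 and 166 CPM. On the T-only side of MS-LS, Ifitm3 was at 51.4 CPM in the 92 cells with exactly 1 T UMI and at 193 CPM in the 34 with more, and Phlda2 at 1062 and 1528 CPM. In OB-EB, Phlda2 was at 1476 and 1182 CPM in T-only cells with 1 and with more T UMIs, and Mixl1 at 79.1 and 144 CPM. Cells with more UMIs of the chosen gene were also deeper.

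Other genes led 1 library alone or both. In MS-LS the Eomes-only side was led, after Myl7, by the ubiquitin ligase adaptor gene Kbtbd8 (85 and 4 UMIs, ratio 2.05, 0.64 to 3.95), Gm43123, Sac3d1, Lsm14b, Gsta4, Usp40, Paip2b and the histone demethylase gene Kdm5a. Their T-only counts were between 2 and 18 UMIs. The T-only side held RP23-60P23.4, of whose 24 UMIs 5 cells held 23, the proteasome activator gene Psme2 (115 and 218 CPM, ratio -0.93), Tmem185a, Tmem267 and Tnfrsf19. In OB-EB the Eomes-only side also held Plin3, the Polycomb gene Phc1 and Acsl4. Glutathione transferase gene Gsta4 (1.25 and 1.01), Fam220a (1.14 and 1.25), Pcsk1n (0.95 and 1.25) and the non-muscle myosin gene Myh10 (1.02 and 0.99) were on the Eomes-only side of both libraries. So was Spink1 (0.34 and 0.68), a marker of visceral endoderm, of whose 1358 Eomes-only UMIs in MS-LS 5 cells held 511. Of the 10 genes leading that side in both libraries, 3 were X-linked, Pim2 among them, against 2 of the 10 leading the T-only side. The X-linked share of all measured genes was not counted, so no trait of a side can be read from these counts.

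Signalling lists showed small medians, except Notch and Nodal signalling in OB-EB, over 3 and 2 genes. BMP signalling was at -0.16 over 7 genes in MS-LS and 0.16 over 5 in OB-EB, and its target Id1 was higher in T-only cells of both, at -0.54 (-0.89 to -0.16) and -1.02 (-1.60 to -0.47). The BMP pseudoreceptor gene Bambi and the effector Smad1 were at -0.89 and -0.62 in MS-LS. Wnt signalling had medians of 0.03 over 9 genes and 0.11 over 7, with the Wnt secretion gene Wls at -0.38 and -0.86 (-1.45 to -0.30) and the feedback inhibitor Nkd1 at -1.06 (-1.96 to -0.09) in MS-LS. FGF signalling was at 0.02 and -0.21, each over 7 genes. Notch signalling was at -0.06 over 4 genes and -0.41 over 3, with Hes1 at 804 and 991 CPM in MS-LS (-0.30, -0.43 to -0.17) and 150 and 199 CPM in OB-EB. Nodal signalling had 4 and 2 measured genes, with medians of 0.03 and 0.46.

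Of the remaining lists, those of the cell cycle and of the epithelial to mesenchymal switch lay near 0. S phase genes had medians of -0.04 over 14 genes and 0.06 over 12, and G2 and M phase genes -0.05 and 0.08. Genes of the epithelial to mesenchymal switch were at 0.04 over 8 genes and 0.09 over 5, with Cdh1, the epithelial cadherin, at -0.17 and 0.33 and Cdh2, the mesenchymal one, at -0.25 and -0.31. Dissociation stress genes had a median of -0.37 over 6 genes in MS-LS, with Fos at -0.93 (-1.70 to -0.11), and in OB-EB 1 of them was measured, at 0.34. The extra-embryonic mesoderm list summed to ratios of -0.70 and -0.97, and to -0.19 (-0.49 to 0.13) and -0.24 (-0.58 to 0.09) without Phlda2.

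The tdTomato reporter transcript was rare on every side. MS-LS held 18 UMIs in 16 of 533 Eomes-only cells and 2 UMIs in 2 of 126 T-only cells, 6.15 and 3.51 CPM, a ratio of 0.81 (-1.26 to 3.96). OB-EB held 6 UMIs in 6 of 188 cells and 14 in 12 of 277, 8.55 and 14.0 CPM, a ratio of -0.71 (-2.37 to 0.76). A difference between the sides was not detectable at this depth. Cells with neither mRNA held 6.91 CPM in MS-LS and 15.9 CPM in OB-EB, within the intervals of both sides.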

How the data were processed

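Single cells were profiled by Chromium Single Cell 3′ v2. Per the labels, the authors used Cell Ranger 3.0.2 on GRCm38, R 3.6.1 and Seurat 3, and the deposited tables hold raw UMI counts per gene and cell. The study's methods name Ensembl release 86 with the reporter plasmid added, and removed barcodes with under 500 genes, under 1000 UMIs or high mitochondrial shares. MS-LS held 3635 cells and 17966956 UMIs and OB-EB held 3994 cells and 12181436 UMIs, and they shared 18 barcodes, of which 0 were member cells in both. The 2 EHF tables, identical over the gene names they share, were counted as 1 library and entered no comparison of the sides.

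UMIs were summed over the cells of a side and divided by the side's total (CPM). Intervals were exact Poisson, exact binomial (Clopper-Pearson) for shares and the exact interval of a ratio of 2 sums. Ratios leave out Eomes, T and the other rule genes, reporter features, and mitochondrial, ribosomal protein and sex-linked (Xist, Tsix, Y) genes. A gene with 0 UMIs on a side was set to a floor of 3 UMIs over that side. The script was tested on simulated data.

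Named genes were the 10 per direction with the largest bound nearest to 0, in each library and in both, genes of opposite direction, and list members chosen by UMIs and by intervals that left out 0. The members and the 21 lists were chosen with earlier results of these data known. A cluster name came from the study's own barcode lists, which were shortened here, so "not listed" cells can have had a name. Scrublet (scanpy 1.11.5) called 6 doublets in MS-LS and 0 in OB-EB, under 0.5% of cells, and was not used for calls; leaving out the highest scores was an alternative. Further alternatives were UMI minimums, the fold, stricter rules, thinning, per-cell means, each sex, cell classes, and 2 chosen after seeing the data. Some genes that met the rule for named genes are not reported here.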

Additional observations from a re-analysis of the deposited data

Results flagged for a closer look

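For 12 of the 3539 genes measured in both libraries, the intervals of the log2 ratio left out 0 in both but on opposite sides. For 21 genes both intervals lay on the T-only side, and for 25 both lay on the Eomes-only side. With 1 library per stage the difference between the libraries was not tested. Sac3d1, a centrosomal gene, was at 1.34 in MS-LS and -1.25 in OB-EB, a difference of 2.60. Its ratio kept its sign in all 19 and all 17 alternatives, some of which cannot change a gene's ratio. Nfatc2ip (-1.06 and 0.90, difference -1.96), Mex3c (0.95 and -0.92, 1.87), the lncRNA B930036N10Rik (0.60 and -0.95, 1.55), Khsrp (0.88 and -0.65, 1.53) and Gorasp2 (-0.74 and 0.75, -1.49) differed by less. Amot, a Hippo pathway gene, was at -0.57 and 0.52, a difference of -1.08, and 5 of its 61 Eomes-only cells in OB-EB held 131 of 221 UMIs. Limk2 was at -0.48 and 0.50 (difference -0.98). The FGF antagonist Spry2 was at 0.34 and -0.30 (0.64), the ribonucleotide reductase gene Rrm2 at 0.22 and -0.31 (0.53), Atp5j2 at -0.16 and 0.26 (-0.42) and Actb at 0.25 and -0.34 (0.59). Actb, the actin gene, was at 2383 and 2005 CPM in MS-LS and at 11434 and 14516 CPM in OB-EB.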

How the results depend on the processing

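No paired analysis was possible because each stage is 1 library and the labels give no replicate numbers; for the same reason no replicate could be left out. Over all alternatives, 111 of 138 list medians and 1786 of 1937 values of named genes kept their sign, and those that did not include many small ratios. For a named gene some of these signs were fixed in advance. Other UMI minimums leave its ratio as it was, and leaving out high mitochondrial shares removed no cell of either side. Setting the median ratio to 1 moved each ratio by only 0.03 in MS-LS and 0.01 in OB-EB. The MS-LS anterior streak and caudal medians kept it in 10 and 12 of 19. The values given next are those of genes past 2-fold, or of medians away from 0, that changed sign, counts that moved by over 1.5 times, and medians and tdTomato ratios outside the range around the main value. The cause of these shifts was not tested, except that other minimums and folds change the genes counted. Genes past 2-fold (Eomes-only, then T-only) numbered 439 and 189 in MS-LS and 139 and 129 in OB-EB at 20 UMIs, 18 and 4, and 2 and 6, at 100 UMIs, and 438 and 216, and 160 and 132, at a fold of 1.5. Thinned cells gave 23 and 7, and 7 and 10, with MS-LS medians of -0.44 for the caudal and 0.026 for the epiblast list, Cer1 at 1.07 and, in OB-EB, Acsl4 at -0.58.

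With 2 or more Eomes or T UMIs, 205 genes in MS-LS and 8 in OB-EB were past 2-fold on the Eomes-only side, the MS-LS anterior streak median was 0.49, the OB-EB caudal median 0.28, and in MS-LS Cer1 was at 0.82 and Tmem267 at 0.72. Female cells gave 11 Eomes-only genes in OB-EB, an OB-EB epiblast median of 0.30, and in MS-LS anterior streak and caudal medians of 0.66 and 1.04, with Acsl4 at -0.15, Cer1 at 0.58, Paip2b at -0.28 and Usp40 at -1.39. Male cells gave 40 and 4 genes in MS-LS, 9 and 7 in OB-EB, a MS-LS caudal median of -0.39 and Tmem267 at 0.80, and in OB-EB a nascent mesoderm median of 0.13 and Ifitm3 at 0.36. Without cells holding other cells' markers, 52 and 13 genes in MS-LS and 8 Eomes-only genes in OB-EB were past 2-fold, with a MS-LS epiblast median of 0.73 and tdTomato at -1.51 on 5 and 0 UMIs.

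Cells named streak gave 60 and 12, and 6 and 8 genes, a MS-LS anterior median of 0.53, tdTomato at -1.91 (4 and 0 UMIs) and 1.43 (0 and 3), and in MS-LS Cer1 at 0.68, S100a11 at 0.42 and Tmem267 at 2.07, in OB-EB Pdlim4 at 0.69 and Phc1 at -0.16. Cells named nascent mesoderm (MS-LS) gave 63 and 11 genes, medians of -0.17 for epiblast and 0.48 for nascent mesoderm genes, tdTomato at -1.63 (5 and 0), Acsl4 at -0.49, Lsm14b at -1.63, Pdlim4 at 1.54, Tmem267 at 0.44 and Usp40 at -0.95. Cells named epiblast gave Kdm5a at -0.34, Myl7 at -1.10, Nfatc2ip at 0.055, Tmem185a at 0.47 and Usp40 at -1.02. Per-cell means gave 30 Eomes-only genes in OB-EB and no requirement of Pou5f1 37. Cer1 was at 0.28 without cells named definitive endoderm and at 0.10 without germ, blood and endoderm cells; this setting and the one that left out cells with 3 or more germ cell marker UMIs were chosen after seeing the data. Each of these 4 tdTomato ratios sets a side with 0 UMIs to the floor of 3 UMIs, so its sign carries no direction.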

Other observations

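The same rule was counted in the EHF library, the latest stage of the series, which entered no comparison above. Of its 1441 pool cells, 17 were Eomes-only (1.18%, 0.689 to 1.88%), 478 T-only (33.2%, 30.7 to 35.7%), 19 had both mRNAs and 927 neither. Over MS-LS, OB-EB and EHF, the share of pool cells with any Eomes UMI was 38.1%, 16.1% and 2.50%, and with any T UMI 16.9%, 20.6% and 34.5%, at median depths of 4212, 2709 and 5729 UMIs. With each cell thinned to 2000 UMIs, Eomes-only cells were 18.7%, 8.19% and 0.640% of the pool and T-only cells 5.90%, 12.4% and 23.7%. Of the 4 deposited samples, 2 are of EHF, and their tables held the same 3494 barcodes with 0 differing values over the 18619 gene names they share, so they were counted as 1 library. Each stage is thus 1 library, and stage and library cannot be told apart.

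T UMIs were more frequent in pool cells with an Eomes UMI than in those without. In MS-LS, 27.3% of pool cells with an Eomes UMI (24.1 to 30.7%) also held T, against 10.6% of those without (8.87 to 12.4%). In OB-EB the shares were 40.7% and 16.7%. Cells with an Eomes UMI were deeper, at medians of 5085 and 3828 UMIs in MS-LS and 3538 and 2602 in OB-EB. With all cells thinned to 2000 UMIs the T shares were 13.1% and 6.53% in MS-LS and 27.1% and 14.0% in OB-EB.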
